A study of Mus musculus with 5 samples.

Results

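The interleukin and interleukin receptor genes of the mouse, other than the core interleukin-1 and interleukin-18 genes and Il7r, were examined for sites where the transcription factor PU.1 stood higher after its restoration. They were taken by name. Every protein-coding gene of the RefSeq GRCm38.p6 gene table whose symbol begins with Il and a digit was a member, except Il1a, Il1b, Il1rn, Il1r1, Il1r2, Il1rl1, Il1rap, Il18, Il18r1, Il18rap and Il7r. This gave 72 of the 21631 protein-coding genes that the table places on autosomes or X. Of these, 35 encode ligands (secreted cytokines or antagonists), 34 receptor chains and 3 neither. The name "without IL-1" holds only in part, since 9 genes of the wider interleukin-1 family remained by the rule: Il33, the interleukin-36 genes Il1f5, Il1f6, Il1f8 and Il1f9, Il1f10, and the receptor genes Il1rl2, Il1rapl1 and Il1rapl2. The members were chosen by symbol, but the excluded genes and the search windows were selected on the number and scores of sites near gene ends in these same data. Every count below is therefore a description without a test.

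PU.1 was mapped by chromatin immunoprecipitation and sequencing in AML-246, a p53-/- mouse acute myeloid leukaemia with a doxycycline-regulated hairpin (shPU.1) against PU.1. Spleen cells of leukaemic C57BL/6 recipients were taken without treatment, while the hairpin was active (PU.1 Low, 2 libraries), or after Dox for 2 days, which shut the hairpin off and let endogenous PU.1 return (PU.1 High, 3 libraries). All 5 libraries share the p53 loss, the hairpin and 1 leukaemia, and the labels call those within a group technical replicates, so that they need not stem from different mice. The deposited data are 1 list of summits, whose name sets high against low, which is taken to mean stronger binding in PU.1 High than in PU.1 Low. Of its 11111 summits, 11106 lay on chromosomes 1 to 19 and X. Each carries the authors' −log10 score, from 1.32 to 43.3 with a median of 8.56. No value per library is given, so that the depth and the spread between libraries are unknown, and the score is not a fold change of binding. A site was placed at a gene by distance to either gene end alone.

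Interleukins are secreted signals between leukocytes and with tissue cells. Most bind receptors built of 2 or more chains, of which one is often shared between several cytokines, such as the common gamma chain (Il2rg), the common beta chain (Csf2rb), gp130 (Il6st) and Il10rb. Most of these receptors signal through JAK kinases and STAT factors, whereas receptors of the interleukin-17 and interleukin-1 families use other adaptors. PU.1 is an ETS-family factor that binds purine-rich DNA around a GGAA core and is needed for the development of myeloid and B cells. Macrophages and dendritic cells, which depend on it, make interleukin-12, whereas many gamma chain cytokines are made by T cells.

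The promoter sequence of Il12rb2 is shown because it was the only one of 64 member promoter windows that held a summit. Those of Il3ra and Il6ra are shown as receptor promoters that hold the letters AGGAAGT and lie within 2 kb of a summit, Il21r as a promoter near a summit with no GGAA, and Il12b as the ligand gene with the highest score among sites within 10 kb that had the member as nearest gene. The windows run 5′ to 3′ from 250 bases before to 50 bases after a start of transcription (RefSeq, GRCm38.p6). Capitals mark GGAA on either strand (TTCC where it lies on the other strand).
Il12rb2, chr6:67376139-67376438, minus strand: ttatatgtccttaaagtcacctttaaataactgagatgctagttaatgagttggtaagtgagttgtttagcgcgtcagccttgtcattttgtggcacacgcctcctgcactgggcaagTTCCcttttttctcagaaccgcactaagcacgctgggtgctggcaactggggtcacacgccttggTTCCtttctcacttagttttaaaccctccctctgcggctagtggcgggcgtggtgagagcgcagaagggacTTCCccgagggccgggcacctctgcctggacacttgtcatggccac
Il3ra, chr14:14346245-14346544, plus strand: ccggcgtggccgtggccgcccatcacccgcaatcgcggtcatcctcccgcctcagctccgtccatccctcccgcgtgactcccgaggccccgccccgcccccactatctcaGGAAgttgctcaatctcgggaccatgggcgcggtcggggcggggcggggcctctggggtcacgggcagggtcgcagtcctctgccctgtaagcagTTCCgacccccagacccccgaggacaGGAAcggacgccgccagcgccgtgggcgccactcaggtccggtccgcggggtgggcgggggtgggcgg
Il6ra, chr3:89913147-89913446, minus strand: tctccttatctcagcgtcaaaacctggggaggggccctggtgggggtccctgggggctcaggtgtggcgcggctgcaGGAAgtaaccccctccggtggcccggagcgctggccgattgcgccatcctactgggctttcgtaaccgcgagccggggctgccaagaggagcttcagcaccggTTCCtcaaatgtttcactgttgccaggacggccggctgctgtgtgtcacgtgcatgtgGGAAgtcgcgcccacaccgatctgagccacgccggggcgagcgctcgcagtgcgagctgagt
Il21r, chr7:125603179-125603478, plus strand: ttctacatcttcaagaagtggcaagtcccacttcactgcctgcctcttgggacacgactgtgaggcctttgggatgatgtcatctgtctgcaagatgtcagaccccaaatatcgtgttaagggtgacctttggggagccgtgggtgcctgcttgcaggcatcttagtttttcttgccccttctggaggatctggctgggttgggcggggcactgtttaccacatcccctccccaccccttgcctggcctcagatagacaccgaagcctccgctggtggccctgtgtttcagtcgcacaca
Il12b, chr11:44399813-44400112, plus strand: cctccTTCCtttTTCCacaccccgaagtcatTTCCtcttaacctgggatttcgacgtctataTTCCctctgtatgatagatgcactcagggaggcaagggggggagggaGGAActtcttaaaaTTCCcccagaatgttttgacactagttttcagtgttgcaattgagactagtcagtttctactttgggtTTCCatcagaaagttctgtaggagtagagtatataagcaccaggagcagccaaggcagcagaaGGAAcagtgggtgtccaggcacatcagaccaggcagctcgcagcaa

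The promoter table matched 55 of the 72 members with 64 windows. In Il12rb2 the summit lay at base 132 of the window, 119 bases before the start, and the window held 3 matches to GGAA. Across the 17274 protein-coding genes with a window, 3.03% had a summit in one, against 1 of 55 members. GGAA occurred in 61 of the 64 member windows (95.3%) and in 95.7% of all 21045 windows. The longer AGGAAGT, searched on both strands, occurred in 9 member windows (14.1%) and in 9.10% of all windows. The longest form searched, GAGGAAGT, which contains the other forms, was found in 1 member window, that of Il4i1, and in 3.15% of all. The 3 windows with no GGAA belonged to Il21r, Il17rb and Il9r. The summit nearest to the Il21r start lay 1.46 kb before it, that of Il3ra 0.914 kb after its start and that of Il6ra 1.797 kb after its start. These matches describe letters within the windows and are not evidence of binding there.

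At 10 and 50 kb, though not at 1 kb, sites lay near members more often than near protein-coding genes at large. Within 1 kb of a gene end, 4 of 72 members (5.56%) had a site, beside 6.41% of all genes. Within 10 kb of a gene end, 26 of 72 members (36.1%, 95% Wilson interval 26.0 to 47.6) had a site, beside 22.4% of all protein-coding genes. Within 50 kb the count was 49 of 72 (68.1%, interval 56.6 to 77.7), beside 49.5%. Of the 11 excluded genes, 9 had a site within 10 kb and all 11 within 50 kb. They were selected on sites in these same data, so these high counts follow from the selection and are not a result. Leaving them out also lowers the member share. With them put back, 35 of 83 genes (42.2%) had a site within 10 kb and 60 (72.3%) within 50 kb. Near these 26 members stood 40 sites, none of which was in reach of 2 members at 10 kb. Of these sites, 17 were inside the gene and 23 outside. The strand was known for 33 of them, and 23 (69.7%) were nearer the start than the end of transcription, beside 62.1% of 5173 such gene and site pairs over all genes. Another gene outside the members had the nearer end for 10 of the 40 sites. For this count and for the split into inside and outside, the share over all genes is not given here. Neither is therefore read as particular to the members. Intervals cover counting error only.

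Receptor genes had sites more often than ligand genes, but the intervals overlapped. At 10 kb, 15 of 34 receptor genes (44.1%, 28.9 to 60.5) and 10 of 35 ligand genes (28.6%, 16.3 to 45.1) had a site. The difference was 15.5 percentage points, with an interval from −6.90 to 36.0 that includes 0. At 20 kb the counts were 17 and 16, beside 32.2% of all genes. At 50 kb, 25 receptor genes (73.5%) and 22 ligand genes (62.9%) had one, a difference of 10.7 points (−11.1 to 31.0). All 5 members on chromosome X were receptor genes, and 20.4% of all genes on X had a site within 50 kb. On autosomes alone, chosen after seeing the data, 24 of 29 receptor genes (82.8%) had a site within 50 kb and 14 (48.3%) within 10 kb. The differences were then 19.9 and 19.7 points, for which no interval is given here. At 100 kb the classes were level with 26 genes each, beside 64.1% of all genes. The nearest site lay a median of 18.4 kb from a receptor gene, 28.6 kb from a ligand gene and 51.1 kb from protein-coding genes at large. Within 1 kb of an end, 2 receptor genes (Il12rb2 and Il31ra), 1 ligand gene (Il12b) and Il4i1b had a site. The receptor genes lay above the general curve from 2 to 200 kb, and the ligand genes from 5 kb outwards.

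**Figure D1:**
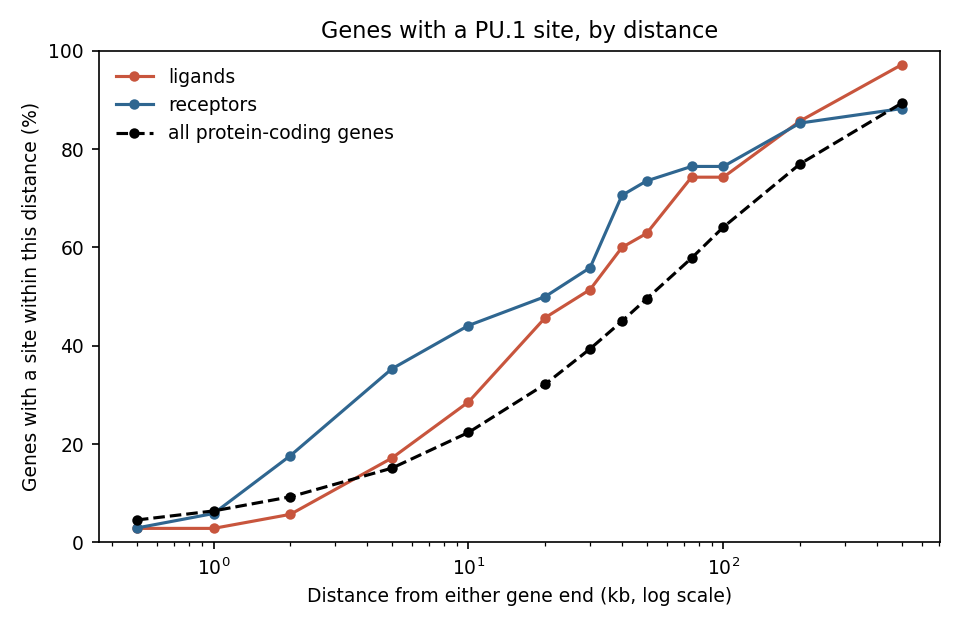
Share of genes (y axis, percent) with at least 1 PU.1 site of the high against low list within the distance on the x axis. Distances are in kb from either gene end, on a log scale. Shown are 35 ligand genes, 34 receptor genes and all 21631 protein-coding genes. At 10 kb the receptor genes stand at 44.1%, the ligand genes at 28.6% and all genes at 22.4%.

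Receptor genes were longer than ligand genes, so that more sequence was searched around them. The median length was 28.8 kb for receptor genes and 6.03 kb for ligand genes. Per Mb of searched window at 10 kb, receptor genes had 21.1 sites (exact Poisson interval 13.8 to 31.0), ligand genes 13.4 (7.13 to 22.9) and all protein-coding genes 8.26. Among genes under 10 kb long, 7 of 25 ligand genes and 2 of 3 receptor genes had a site within 10 kb, beside 15.9% of all such genes. Between 10 and 40 kb the shares were 2 of 6 and 6 of 18 (33.3% each), beside 26.9%. At 40 kb or more they were 1 of 4 and 7 of 13, beside 24.8%. The shares of ligand and receptor genes at 10 kb were thus the same in the middle class only. In the shortest and longest classes the receptor share was higher, from as few as 3 receptor genes and 4 ligand genes. At 50 kb the middle class stood in the opposite order, with 5 of 6 ligand genes and 13 of 18 receptor genes, beside 54.7%. The receptor share was higher at 50 kb in the shortest class (15 of 25 ligand and 2 of 3 receptor genes, beside 39.5%). So it was in the longest (2 of 4 and 10 of 13, beside 55.7%). The part of gene length in the difference was not tested further.

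Within 10 kb the scores stood in the opposite order, with the ligand sites higher. The 13 sites within 10 kb of ligand genes had a median score of 10.7 (range 1.95 to 30.9), and the 26 near receptor genes 6.39 (1.72 to 18.8). A score of at least 10 was reached by 9 of 13 ligand sites (69.2%, Wilson interval 42.4 to 87.3) and by 4 of 26 receptor sites (15.4%, 6.15 to 33.5), beside 37.4% of all 11106 sites. These intervals take the sites as independent, although the 13 ligand sites lay at 10 genes and the 26 receptor sites at 15. Counted as genes, 7 of 35 ligands and 4 of 34 receptors (11.8%) had a site of that score within 10 kb, beside 9.08% of all genes. The difference of −8.24 points had an interval from −25.6 to 9.65. Within 50 kb the counts were 11 ligands and 16 receptors, beside 26.2% of all genes. With only the sites whose nearest gene was the member itself, 7 of 9 ligand sites and 3 of 21 receptor sites scored at least 10. Out to 50 kb the gap was smaller, with 14 of 34 sites (41.2%, median 9.70) for ligands and 18 of 68 (26.5%, median 7.44) for receptors. Per Mb of window, sites of that score were then level, at 4.16 for ligands and 4.29 for receptors, beside 2.42 for all protein-coding genes. At 10 kb their density was 9.27 (Poisson interval 4.24 to 17.6) for ligands and 3.25 (0.886 to 8.33) for receptors, beside 2.95 for all genes. The receptor density of such sites at 10 kb was thus near the general one. Counted by the highest score at each gene with a site, the medians were 10.7 for ligands and 7.23 for receptors at 10 kb. At 50 kb they were 9.88 and 10.8, in the reverse order. Several receptor genes drew more than 1 site. Within 10 kb, 8 receptor genes and 2 ligand genes (Il12b and Il16) had 2 or more, beside 5.41% of all genes.

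**Figure D2:**
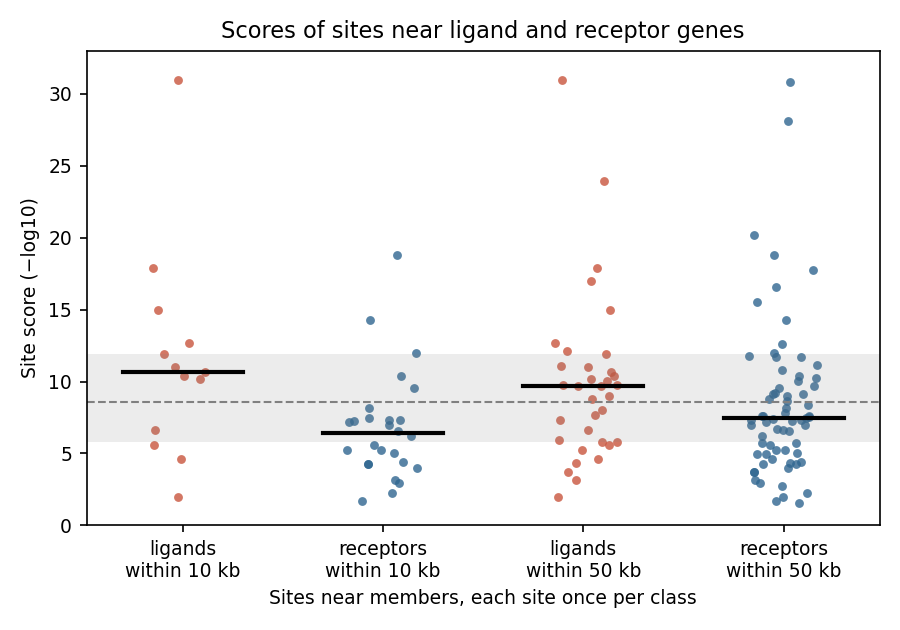
Score of each site (y axis, −log10) near ligand and receptor genes at the 10 kb and 50 kb windows (x axis), each point 1 site, with black bars at the medians. The dashed line is the median of all sites (8.56) and the grey band their quartiles (5.78 to 11.9): the ligand median at 10 kb (10.7) lies above the line and the receptor median (6.39) below it.

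Among the ligands, the highest score at a site with the member as nearest gene within 10 kb belonged to Il12b. Il12b (chromosome 11, 44400063 to 44414677), the p40 chain shared by interleukin-12 and interleukin-23, held 1 site within the gene, 5.3 kb after its lower end (44405368, score 11.9). It also had one of 17.9 that lay 0.413 kb past its 3′ end, at 44415090. The partner chains had none nearby. Il12a (p35) and Il23a (p19) had no site within 50 kb, their nearest lying at 56.9 and 57.9 kb. Il27 (chromosome 7, 126589009 to 126595035), a further cytokine of this branch, had a site of score 11 at 4.39 kb beyond its lower end, but the end of Apobr was nearer to it (0.304 kb).

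The highest score near any member within 10 kb, 30.9, belonged to Il31 (chromosome 5, 123480152 to 123482623), a cytokine of T cells known for itch. It ranked 39 among all sites and stood at 123487831, 5.21 kb upstream of Il31. The end of Lrrc43 lay closer, at 1.46 kb. Il3 (chromosome 11, 54265085 to 54267279), a growth factor of early myeloid and mast cells, had a site of score 10.4 at 1.27 kb past its 3′ end. Il16, a chemoattractant of CD4-bearing cells made as a long precursor, had 3 sites inside the gene within 10 kb of its 3′ end, of scores 10.7, 12.7 and 5.56, and 2 deeper ones of 3.12 and 5.26.

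In the interleukin-17 family, Il17d held 1 site (score 14.97) within the gene, 2.48 kb after its start. Il17c had one of 4.62 at 8.92 kb, which lay 0.38 kb from the end of Cyba, and Il17b one of 1.95 at 8.20 kb, with Pcyox1l nearer. Il17a and Il17f, the T cell cytokines that give the family its name, had 0 sites within 50 kb. Il1f9 (interleukin-36 gamma) had a site of score 10.1 at 2.02 kb upstream of its start, which also lay within 50 kb of its neighbours Il1f8 and Il1f6. Il20, an interleukin-10 relative that acts on epithelia, had one of 6.61 at 7.46 kb upstream, which was also the only site within 50 kb of Il19 and Il24. These ligand sites thus split into those at the member's own gene, at 6 of the 10 genes (Il12b, Il16, Il17d, Il1f9, Il20 and Il3), and those with another gene's end closer (Il31, Il27, Il17c and Il17b).

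In the gamma chain family, with interleukin-13 and its receptors, sites within 10 kb stood at receptor genes and at no ligand gene. Of 9 receptor genes, 6 had a site within 10 kb, beside 22.4% of all genes. Of 7 ligand genes (Il2, Il4, Il7, Il9, Il13, Il15 and Il21) 0 had one. This does not compare the whole family, since the rule drops the receptor gene Il7r but keeps the ligand gene Il7. Of the receptor genes, Il2rg, Il13ra1 and Il13ra2 lie on chromosome X, where 8.39% of genes had a site within 10 kb. A score of at least 10 was reached within 10 kb at 1 of the 9 receptor genes, beside 9.08% of all genes. The upper limit of the Wilson interval for the ligands is 35.4%, which includes the share of all genes. Within 50 kb the counts were 6 of 9 receptor genes and 3 of 7 ligand genes, beside 49.5% of all genes. Among these ligands, Il15 held 2 sites deep inside its 71.6 kb gene, with Il15 as the nearest gene. Their scores were 9.71 and 7.9997, at 28.6 and 32.5 kb from an end. Il4ra (chromosome 7, 125552271 to 125579474), the chain shared by the interleukin-4 and interleukin-13 receptors, had 3 sites, of score 10.4 at 9.46 kb upstream and of scores 2.26 and 7.48 at 4.08 and 9.43 kb past its 3′ end. Its neighbour Il21r had a site of score 4.41 at 1.28 kb upstream of the gene, and all sites of Il21r within 50 kb were also within 50 kb of Il4ra.

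Il2ra (CD25), the high-affinity chain for interleukin-2, had a site of score 7.20 at 5.59 kb upstream and, deeper in the gene, sites of 10.8 and 4.99. The adjoining Il15ra had sites of 5.26 and 4.004 inside the gene. Il2rb, the signalling chain of both receptors, had one of 6.57 at 8.69 kb, where C1qtnf6 was nearer. Il13ra1, a chain that pairs with Il4ra, had one of 4.23 at 4.41 kb upstream. It was the only one of 5 members on chromosome X with a site within 50 kb. On that chromosome 20.4% of 966 genes had a site within 50 kb and 8.39% within 10 kb, so that 1 of 5 members is close to the share of its chromosome at 50 kb. The shared gamma chain gene itself, Il2rg, also on X, had none.

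The interleukin-3 receptor gene Il3ra (CD123), a marker of early myeloid and leukaemic cells, held 3 sites inside its 9.58 kb (chromosome 14, 14345912 to 14355493). Their scores were 3.18, 9.57 and 1.72. Il5ra, the eosinophil receptor chain, had none within 50 kb.

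Among the receptors of the interleukin-6 and interleukin-12 families, 4 of 9 had a site within 10 kb, beside 22.4% of all genes. Il12rb2 (chromosome 6, 67285986 to 67376293), the signalling chain of the interleukin-12 receptor, had the summit in the promoter shown above (67376307, score 5.02). It had a second, higher site of 18.8 that lay 4.13 kb upstream of the gene, the highest score of any receptor gene at 10 kb. Il6ra, the specific interleukin-6 receptor chain, had a low site of 2.93 at 1.797 kb inside its 5′ end. Il11ra1 had one of 4.23 at 4.24 kb, with Galt nearer. Il11ra2, a near-identical copy of Il11ra1, had none, and the sources used here do not say how reads that map to both copies were treated. Il31ra had sites of 5.59 and 7.23 inside the gene. The first of these was also the only site within 50 kb of the adjoining Il6st, the gp130 chain.

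Il10ra (chromosome 9, 45253837 to 45269149), the ligand-binding chain of the interleukin-10 receptor, had 3 sites beyond its lower end, with scores of 6.98, 7.29 and 12.0 at 1.24, 5.94 and 7.55 kb. The gene BC049352 was nearer to all 3. A higher site of 20.2 stood 11.9 kb beyond the upper end, with Il10ra as its nearest gene, and 9 sites in all lay within 50 kb. Il10 itself had none within 50 kb. In the interleukin-17 receptors, Il17rd had sites of 14.3 and 6.21 at 3.56 and 6.31 kb inside its 5′ end, and Il17ra, the chain common to the family, had one of 8.18 inside the gene. Il1rl2, the interleukin-36 receptor, had sites of 7.29 and 5.21 within 10 kb and one of 17.8 deeper inside, among 11 within 50 kb, the most of any member. Several of these lay nearer to the excluded neighbour Il1rl1. Of the 3 members that are neither ligand nor receptor, only Il4i1b had a site within 10 kb, of score 1.89. It lay 0.638 kb before this read-through gene of Nup62 and Il4i1, and the end of Nup62 was nearer.

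**Figure D3:**
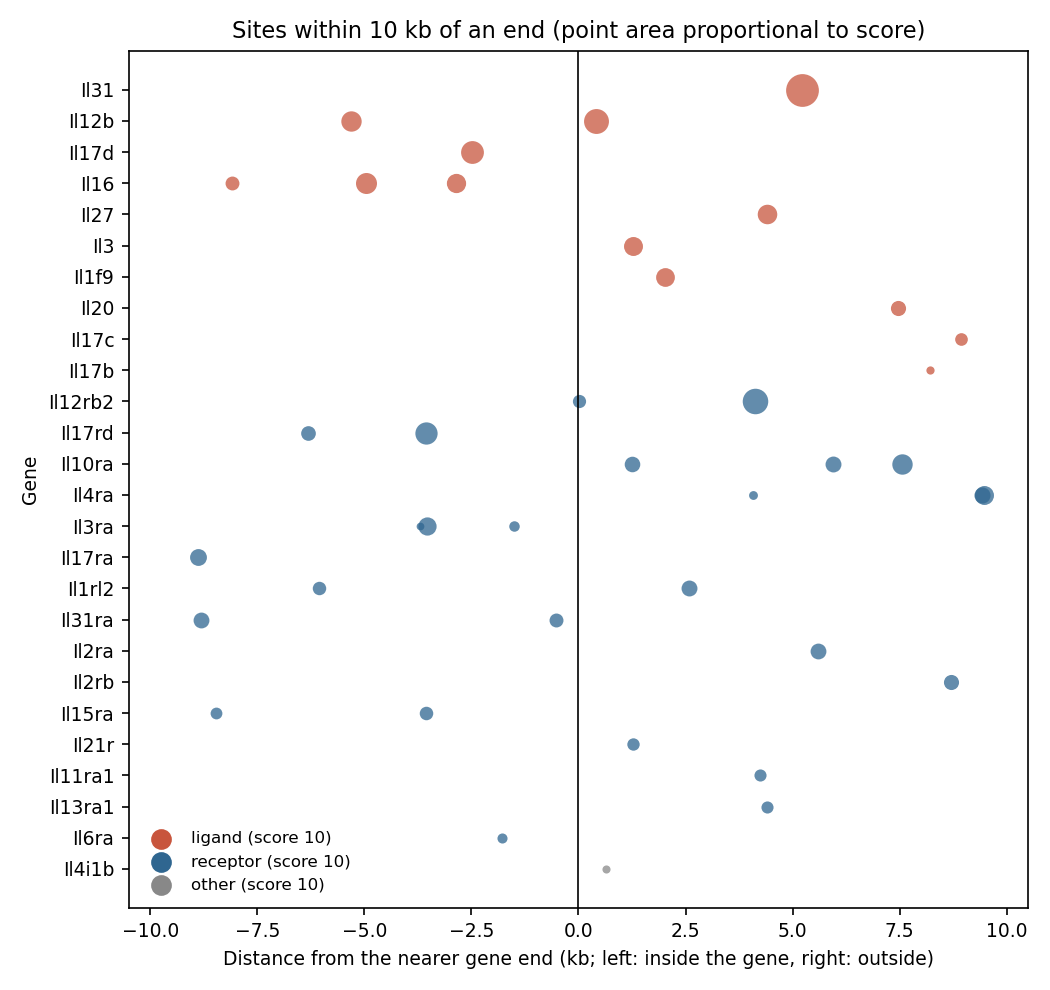
Position of every site within 10 kb of the 26 members that had one (rows), as the distance in kb from the nearer gene end, to the left inside the gene and to the right outside. Point area is proportional to the score and colour gives the class; the largest points are Il31 (30.9), Il12rb2 (18.8) and Il12b (17.9).

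A further 23 members had their nearest site between 10 and 50 kb away. The highest score among them was at Il20ra, a chain of the interleukin-20 and interleukin-19 receptors, with a site of 28.1 inside the gene, 21.6 kb from an end, ranked 68 among all sites. Il6, the acute-phase cytokine, had 4 sites at 16.2 to 44.5 kb. They included one of 17.02 at 19.3 kb and one of 24.0 at 44.5 kb upstream of its start, and Il6 was the nearest protein-coding gene to both. Il23r shared the 18.8 site of Il12rb2 at 42.5 kb. Il17re and Il17rc, adjacent genes, shared a site of 11.8 at 46.9 and 34.4 kb that lay closer to Emc3. Il17rb had one of 11.7 at 45.2 kb, Il10rb one of 11.1 at 26.3 kb, Il1f8 one of 11.1 at 18.6 kb and Il22ra2 one of 10.3 at 34.3 kb. Il1f6 was in reach of the 10.1 site of Il1f9. The other 13 were Il2, Il5, Il6st, Il11, Il12rb1, Il15, Il19, Il20rb, Il21, Il24, Il25, Il1f10 and Il4i1. Of the 103 sites within 50 kb of a member, 15 were in reach of 2 or more members, so that neighbouring genes in this window are not independent. At Il31ra a site of 30.8 stood 22.1 kb upstream, with Ddx4 nearer.

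No site lay within 50 kb of 23 members. The ligand genes were Il4, Il7, Il9, Il10, Il12a, Il13, Il17a, Il17f, Il22, Il23a, Il33, Il34 and Il1f5. The receptor genes were Il2rg, Il5ra, Il9r, Il11ra2, Il13ra2, Il22ra1, Il27ra, Il1rapl1 and Il1rapl2, and Il18bp completed the set. Since 49.5% of all genes have a site at that distance, the lack of one is common. It does not show that PU.1 is absent, because the list sets high against low and binding alike in both states would not appear. At the 10 kb limit, Il17ra (8.90 kb, score 8.18) and Il17c (8.92 kb, 4.62) were the last members inside. Il11 missed it by 4 bases (10.004 kb, score 9.75, at a summit 0.054 kb from the end of Rpl28), followed by Il10rb (12.4 kb, 6.61). At 50 kb, Il1f10 (41.4 kb, 4.35) and Il17re (46.9 kb, 11.8) were inside and Il1f5 (53.1 kb, 4.35) and Il12a (56.9 kb, 13.3) outside.

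**Figure D4:**
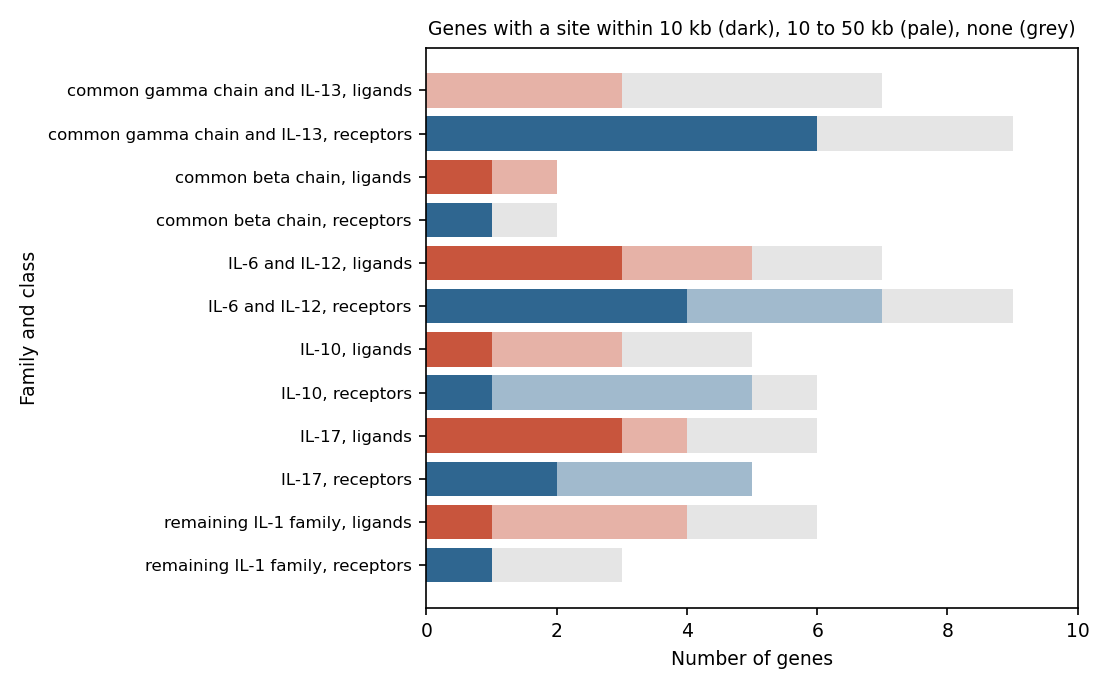
Number of genes (x axis) in each family and class (rows) with a site within 10 kb of an end (dark), only between 10 and 50 kb (pale) or none within 50 kb (grey). The gamma chain family, from which the rule drops Il7r, shows 6 of 9 receptor genes and 0 of 7 ligand genes at 10 kb, beside 22.4% of all genes. The 5 members outside these families are not drawn.

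By family, the share with a site within 10 kb ran from 2 of 11 in the interleukin-10 family (18.2%) to 5 of 11 in the interleukin-17 family (45.5%) and 2 of 4 in the beta chain family, beside 22.4% of all genes. With so few genes each, the Wilson intervals of these families overlap (5.14 to 47.7 and 21.3 to 72.0 for the first 2). At 50 kb the shares ran from 5 of 9 in the remaining interleukin-1 family (55.6%) and 9 of 16 in the gamma chain family (56.2%) to 8 of 11 in the interleukin-10 family (72.7%) and 9 of 11 in the interleukin-17 family (81.8%), beside 49.5% of all genes.

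Of 36 other genes of interleukin signalling, which are not members, 15 (41.7%) had a site within 10 kb and 29 (80.6%) within 50 kb, beside 22.4% and 49.5% of all protein-coding genes. Among 4 JAK kinases, Jak1 had 3 sites (highest score 8.46) and Tyk2 had 1 (7.9997). Among the 6 STAT factors examined, Stat4 (13.0), Stat6 (8.64) and Stat3 (6.61) had a site. Of 10 feedback inhibitors, Socs3 (13.0), Socs7 (11.9), Ptpn6 (11.3) and Socs5 (8.84) had one. Of 9 other cytokine receptor genes among the 36, not all of which pair with a member, 5 did: Csf2ra (14.97), Csf1r (7.48), Csf2rb (7.29), Crlf2 (4.96) and Lifr (3.54). Csf2rb is the common beta chain used by Il3ra and Il5ra. Of 5 other ligand genes among the 36, Ebi3 had one (8.72), the subunit that pairs with Il27. The 2 adaptors of interleukin-17 signalling, Traf3ip2 and Traf6, had none within 10 kb.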

How the data were processed

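The submitters' processing notes name MACS2, CASAVA 1.8.2 and build mm10. The sources used here do not give the aligner, the MACS2 version and settings, or how the technical replicates entered. The deposited score of each summit is on a −log10 scale, of a p-value or of a q-value (no source says which). Its minimum of 1.32 lies just above 1.30, the −log10 of 0.05. Depth is unknown. Positions are 1-based on mm10, whose chromosome coordinates GRCm38.p6 shares, and 5 summits off chromosomes 1 to 19 and X were left out.

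Distances to gene ends were computed in Python 3.11.15 with pandas 2.3.3 and numpy 2.4.6, and intervals with scipy 1.17.1 (Wilson for shares, a Newcombe interval for differences of shares, exact Poisson for counts, all at 95%). In a simulation over 21631 genes, 100% of 200 planted sites were recovered. The sites were planted within 10 kb of a gene end and searched with the same window, so that the simulation checked the counting alone. It says nothing on how well binding was detected. Strand came from the RefSeq promoter table.

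The members, classes, families and pathway list were chosen with earlier results of these data known. Named genes follow a rule: all members with a site within 10 kb, the 10 highest-scoring of those at 10 to 50 kb, the other members by name, 2 on each side of each limit, and pathway genes with a site within 10 kb. From the pathway list as planned, 1 gene is not reported here and enters no count. The Il31ra site of score 30.8 and the sites of Il10ra, Il15, Il1rl2, Il2ra and Il16 beyond 10 kb were named after their values were seen. So were the nearest site of Il23a, and Traf3ip2 and Traf6. Alternatives were a score minimum of 5 or 10, windows of 1, 20 and 100 kb, gene spans, nearest gene only, and changes to the member list.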

Additional observations from a re-analysis of the deposited data

How the results depend on the processing

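Across 82 recomputed values, 67 stayed within 1.5 times the count (or within the counting interval or spread), 14 moved beyond that and 1 turned. This tally is not a measure of stability. No site within 10 kb was in reach of 2 members, so counting shared sites once could not change the 10 kb values. The differences of shares had wide intervals, so that a fall from 15.5 to 4.29 points with a 20 kb window still counted as unmoved. With only sites of score at least 10, the difference of receptor minus ligand share at 10 kb turned from 15.5 to −8.24 percentage points, since receptor genes fell to 4 and all members to 11. Sites per Mb near receptors at 10 kb fell to 3.25, beside 2.95 for all protein-coding genes at that score. At 50 kb the counts were 27 members, 11 ligands and 16 receptors. When a site counted for the nearest protein-coding gene alone, 6 ligands remained at 10 kb, and 27 members, 11 ligands and 16 receptors at 50 kb. That rule lowers the share of all genes as well, and the lowered share is not given here. These counts therefore cannot be set beside 22.4% and 49.5%. A 1 kb window left 4 members, 1 ligand and 2 receptors, and a 20 kb window took in 16 ligands and 17 receptors. The difference at 10 kb ranged from −8.24 to 19.7 points over 10 alternatives, and at 50 kb from 2.18 to 19.9 over 9. Autosomal members alone and the excluded genes put back were alternatives chosen after seeing the data, and neither moved a count beyond 1.5 times. No paired analysis was possible because the list has no column per library, which also kept any library from being left out. Depth is unknown, so that a gene without a site may lie below detection. Such a gene may also hold PU.1 at a similar strength in PU.1 High and PU.1 Low, since the list sets high against low.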
